A study of Pimephales promelas with 15 samples.

Results

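In whole fathead minnow larvae, 200 gene identifiers (IDs) had levels that followed the replicate number printed in the sample titles, across solvent and both concentrations of 17α-ethinylestradiol (EE2). Replicates 1 to 5 of each exposure share their numbers, so 3 libraries carry each number, 1 per exposure. The IDs were chosen by measured values. Counts were divided by the column total and scaled to a total of 1000000 (CPM), taken as log2(CPM + 1) and centred on the mean of the exposure group, and the variation between numbers was divided by the variation within numbers to give an F ratio (4 and 8 degrees of freedom). Of 26150 IDs, 14834 had a mean of at least 5 CPM, a prefix other than scaf140 or scaf36, and overlapping CPM ranges at 100 ng/L EE2 and in solvent, and the 200 with the largest F ratios were taken. All 200 passed the filter on low counts used for testing. Their F ratios ran from 23.6 to 209, with a median of 30.4. The last pair inside the limit, scaf33.338 and scaf71.34, had F ratios of 23.582 and 23.580, and the first pair outside, scaf3.869 and scaf17.489, had 23.54 and 23.47, so the limit does not fall in a gap. Because replicate number chose these IDs, their differences between numbers are given as a description. Tests of replicate number are read over all IDs only, and a count of the 200 beside them restates the choice and supports nothing.

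The libraries were made from poly(A) RNA of pooled whole bodies at 4 days post-hatch. The sample titles call them pooled whole embryos, and they are called larvae here because of the labelled age after hatching. Fish were exposed in petri dishes with static renewal, starting less than 6 hours after fertilization and ending 96 hours after hatching. There were 5 libraries in solvent (0.01% DMSO), 5 at 20 ng/L EE2 and 5 at 100 ng/L EE2, both nominal, and the EE2 labels name no DMSO level. The labels give neither the number of fish per pool nor what a replicate number stands for, such as a shared spawn, dish, day or sequencing run. Nothing in them says that replicates are separate cultures. The p-values therefore rest on the spread between these libraries alone, which may be technical.

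EE2 is the synthetic estrogen of oral contraceptives. In fish it binds the nuclear estrogen receptors, and its best known effect is to switch on the egg-yolk precursor vitellogenin in the liver, in males and juveniles too. The fathead minnow is a small cyprinid used widely in toxicity testing. RNA of a whole larva mixes all tissues, so a lower level may reflect fewer cells of a type or less RNA per cell, and these cannot be told apart. The files do not pair the IDs with gene names, and none (0) matched a reference table of 64593 minnow genes, so IDs are given as deposited and no role is assigned. The labelled tissue could for the same reason not be checked against marker genes. CPM is not divided by transcript length, so levels are compared between libraries and not between IDs.

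Total counts ran from 32674182 to 73989987 per library. By number they were 32674182 to 37100443 for number 1, 38841310 to 41796636 for number 2, 48433139 to 55722278 for number 3, 35170453 to 73989987 for number 4 and 34405619 to 71772202 for number 5. Numbers 2 and 4 stood at opposite ends of most of the patterns below, and their totals overlapped over the 3 exposures. Within exposures, number 4 had more counts than number 2 in solvent (53545997 against 38841310) and at 20 ng/L (73989987 against 41796636). At 100 ng/L it had fewer (35170453 against 41242396). Whether total count has a part in the patterns was not tested. Over IDs within the limits but outside the 200, solvent replicate 1 lay farthest of all libraries from those of other numbers. Its median absolute difference from them was 0.36 on the log2 scale, on values centred by exposure group. Without solvent replicate 1, 118 of the 200 IDs would still be among the 200 largest F ratios. The overlap was 104 without replicate 1 of 20 ng/L, 128 without replicate 4 of 100 ng/L, 129 without replicate 5 of 100 ng/L, and between 142 and 163 without any other 1 library.

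The main pattern set numbers 2 and 3 against number 4. Number 4 had the highest mean and number 2 the lowest in 103 IDs (51.5%, against 13.6% of the other 14634 IDs that met the limits). The opposite order, number 2 highest and number 4 lowest, was seen in 42 IDs (21.0%, against 10.9%). Numbers 2 and 3 lay on the same side of the group mean in 193 IDs (96.5%, against 75.4%). For 95 IDs the 6 libraries numbered 2 or 3 all lay beyond the other 9 in CPM, above them in 49 and below them in 46, where 3.80% of all IDs that met the limits did. For 134 IDs (67.0%) the 6 libraries of some pair of numbers lay beyond all others, against 8.29% of all IDs that met the limits. The choice by F ratio favours separation by number, so these shares describe the 200 and nothing is read from their excess. With scaling by trimmed means (TMM), not column totals, 182 of the 200 IDs kept the same number farthest apart in the same direction. Number 4 was highest and number 2 lowest in 88 in place of 103, and the opposite order held in 48 in place of 42. The shares of the other IDs given above were taken with column totals. The choice itself moved more: 135 of the 200 stayed among the 200 largest F ratios with TMM.

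The clearest separation by number, as ranked by F ratio, was in scaf2.827, scaf6.75, scaf2.1319 and scaf48.72. In scaf2.827, replicates 2 had 75.1, 80.1 and 77.7 CPM in solvent, 20 ng/L and 100 ng/L EE2, and replicates 3 had 57.9, 69.6 and 68.8 CPM. The other numbers had 26.2, 29.4 and 26.1 CPM (number 1), 22.99, 23.5 and 21.5 CPM (number 4) and 23.6, 29.1 and 21.6 CPM (number 5), in the same order of exposure. No library numbered 2 or 3 came below 57.9 CPM and no other library above 29.4 CPM, and replicate number held 99.1% of the variation within exposure groups. In scaf6.75, replicates 2 averaged 99.1 CPM ± 0.9995 and replicates 3 averaged 92.5 CPM ± 3.93 (SD, n = 3 each). Means for the other numbers were 45.03 CPM ± 1.96 (number 1), 31.1 CPM ± 3.89 (number 5) and 27.9 CPM ± 1.61 (number 4; SD, n = 3 each). Here number 1 held a level of its own: its libraries, at 46.9, 43.0 and 45.1 CPM, all lay above the 6 libraries numbered 4 or 5, at 26.5 to 35.3 CPM.

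**Figure D1:**
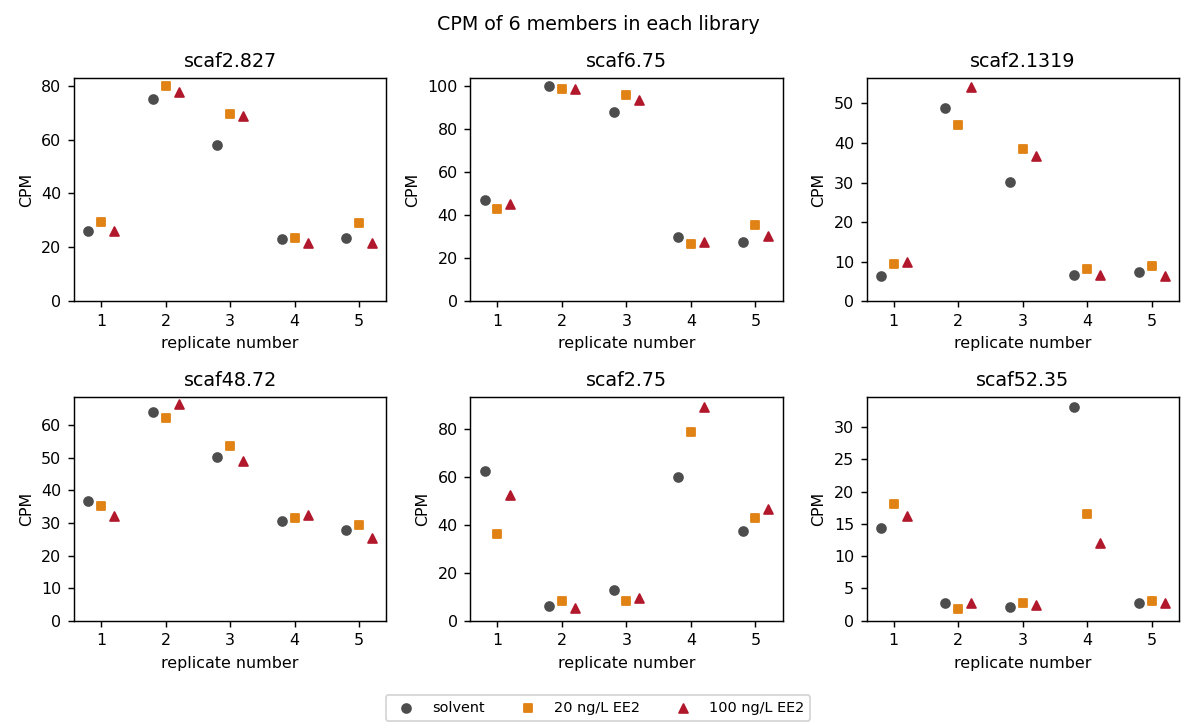
CPM of 6 IDs (scaf2.827, scaf6.75, scaf2.1319, scaf48.72, scaf2.75 and scaf52.35) by replicate number, with 1 point per library (circle, solvent; square, 20 ng/L EE2; triangle, 100 ng/L EE2). In the first 4, all libraries numbered 2 and 3 lie above the rest, in scaf2.75 they lie below the rest, and in scaf52.35 numbers 1 and 4 are high.

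The same division was wider in scaf2.1319. Its libraries numbered 2 had 48.8, 44.5 and 54.1 CPM in solvent, 20 ng/L and 100 ng/L, and those numbered 3 had 30.1, 38.5 and 36.8 CPM. The 9 others lay between 6.42 and 9.95 CPM. Each library numbered 2 lay above each library numbered 3, and the mean of the highest number was 6.18-fold that of the lowest on the log2(CPM + 1) scale. In scaf48.72 the ratio was smaller, at 2.29-fold, and numbers 2 and 3 were again apart from the rest. Replicates 2 averaged 64.2 CPM ± 2.23, replicates 3 averaged 51.0 CPM ± 2.39, and the remaining means were 34.6 CPM ± 2.35 (number 1), 31.5 CPM ± 0.827 (number 4) and 27.5 CPM ± 2.10 (number 5; SD, n = 3 each), with libraries of numbers 1 and 4 overlapping.

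IDs were grouped by the number whose mean lay farthest from the mean of the other 4. Number 4 was farthest in 127 IDs, above the others in 102 and below in 25. Number 2 was farthest in 54, above in 35 and below in 19. Number 5 was farthest in 11 (1 above, 10 below), number 1 in 4 (3 above, 1 below) and number 3 in 4 (2 above, 2 below). With TMM, number 4 was above in 94 and below in 26, and number 2 above in 37 and below in 27. Column totals left median log2 offsets from the other numbers over all IDs that met the limits. These were 0.079, -0.045, -0.017, 0.063 and -0.067 for numbers 1 to 5. The offsets for numbers 4 and 2 run in the direction of the main pattern, but the largest above 0 was that of number 1 and the largest below 0 that of number 5. With TMM the offsets ran from -0.0021 to 0.0090. All 200 IDs had the direction of their group within solvent, within 20 ng/L and within 100 ng/L. For 168 IDs the 3 libraries of 1 number all lay beyond the other 12 after centring by group, where 21.4% of the IDs that met the limits did, and without solvent replicate 1 the count was 173. These values come from the same contrast as the choice of the IDs, and nothing is read from the shares.

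The 102 IDs with number 4 above the others made the largest group, and their differences were moderate. Number 4 was higher by a median of 0.50 on the log2(CPM + 1) scale, or 1.42-fold, with a range of 0.17 to 1.91. By exposure the median was 1.37-fold in solvent, 1.47-fold at 20 ng/L and 1.42-fold at 100 ng/L. The widest difference in this group was in scaf52.35, where replicates 4 had 33.1, 16.6 and 11.999 CPM in solvent, 20 ng/L and 100 ng/L. Its replicates 1 had 14.3, 18.0 and 16.2 CPM, and the 9 libraries of numbers 2, 3 and 5 had 1.77 to 3.07 CPM. In this ID the libraries of numbers 1 and 4 overlapped, and both stood apart from the rest at every exposure. A second ID of the group, scaf8.435, had the highest mean CPM of the 200. Its replicates 4 had 706, 782 and 749 CPM in solvent, 20 ng/L and 100 ng/L, above the other 12 libraries at 493 to 628 CPM.

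In the 25 IDs with number 4 below the others, it was lower by a median of 0.65 on the log2 scale (0.637-fold). The widest was scaf13.255, with 3.92, 2.43 and 6.34 CPM in replicates 4 of solvent, 20 ng/L and 100 ng/L. The other 12 libraries lay between 9.79 and 41.2 CPM and spread widely, from 12.6 and 9.79 CPM in replicates 5 of solvent and 20 ng/L to 30.3 CPM in replicate 5 of 100 ng/L. Number 4 was thus apart from all other libraries, but numbers 1, 2, 3 and 5 overlapped in part.

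In the 35 IDs with number 2 above the others, it was higher by a median of 0.78 on the log2 scale (1.72-fold), with medians of 1.79-fold in solvent, 1.61-fold at 20 ng/L and 1.79-fold at 100 ng/L. Across the 200 IDs, the largest ratio between numbers was in scaf3.312, 11.6-fold between the highest and lowest number. It had 70.1, 67.1 and 61.3 CPM in replicates 2 of solvent, 20 ng/L and 100 ng/L, and 44.3, 57.1 and 50.8 CPM in replicates 3. The 9 libraries of numbers 1, 4 and 5 had 2.53 to 9.54 CPM, so the lowest library of numbers 2 and 3 stood far above the highest of the others. In the 19 IDs with number 2 below the others the median was -0.51 on the log2 scale (0.701-fold). Their widest member was scaf2.75, a near mirror image, with 5.97, 8.47 and 5.26 CPM in replicates 2 and 12.7, 8.18 and 9.46 CPM in replicates 3 of solvent, 20 ng/L and 100 ng/L. Its replicates 1 had 62.5, 36.1 and 52.7 CPM, its replicates 4 had 60.1, 78.8 and 89.2 CPM, and its replicates 5 had 37.5, 43.1 and 46.8 CPM. The 6 libraries of numbers 2 and 3 lay below all 9 others, between which numbers 1, 4 and 5 overlapped in part.

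Patterns led by numbers 1, 3 or 5 were rarer. In scaf25.212, replicates 5 had 3.66, 3.90 and 3.81 CPM in solvent, 20 ng/L and 100 ng/L, below the other 12 libraries at 5.23 to 10.98 CPM. In scaf1.548, replicates 5 averaged 13.3 CPM ± 2.56 and replicates 1 averaged 12.7 CPM ± 0.759, and the 9 others ran from 7.03 to 10.7 CPM, up to the level of the lowest replicate 5. In scaf63.39, replicates 1 averaged 8.27 CPM ± 0.648 and replicates 4 averaged 8.24 CPM ± 0.722 (SD, n = 3 each), both above the 9 others at 4.64 to 6.60 CPM. In these last 2 IDs a pair of numbers shared the high level, and the number that counted as farthest did not differ from its partner beyond their spread. The same held for scaf27.13, at 28.1 CPM ± 5.57 in replicates 3 and 27.5 CPM ± 3.80 in replicates 2, with the others at 5.54 to 10.1 CPM. It also held for scaf37.83, at 9.07 CPM ± 1.82 in replicates 3 and 9.51 CPM ± 1.46 in replicates 2, with the others at 15.8 to 25.5 CPM. In scaf38.79 the numbers overlapped in CPM: replicates 1 averaged 5.82 CPM ± 0.987, replicates 4 averaged 6.63 CPM ± 0.808, and the others ran from 6.51 to 11.3 CPM. Its separation appears after centring, since within each exposure the library numbered 1 was the lowest of 5.

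**Figure D2:**
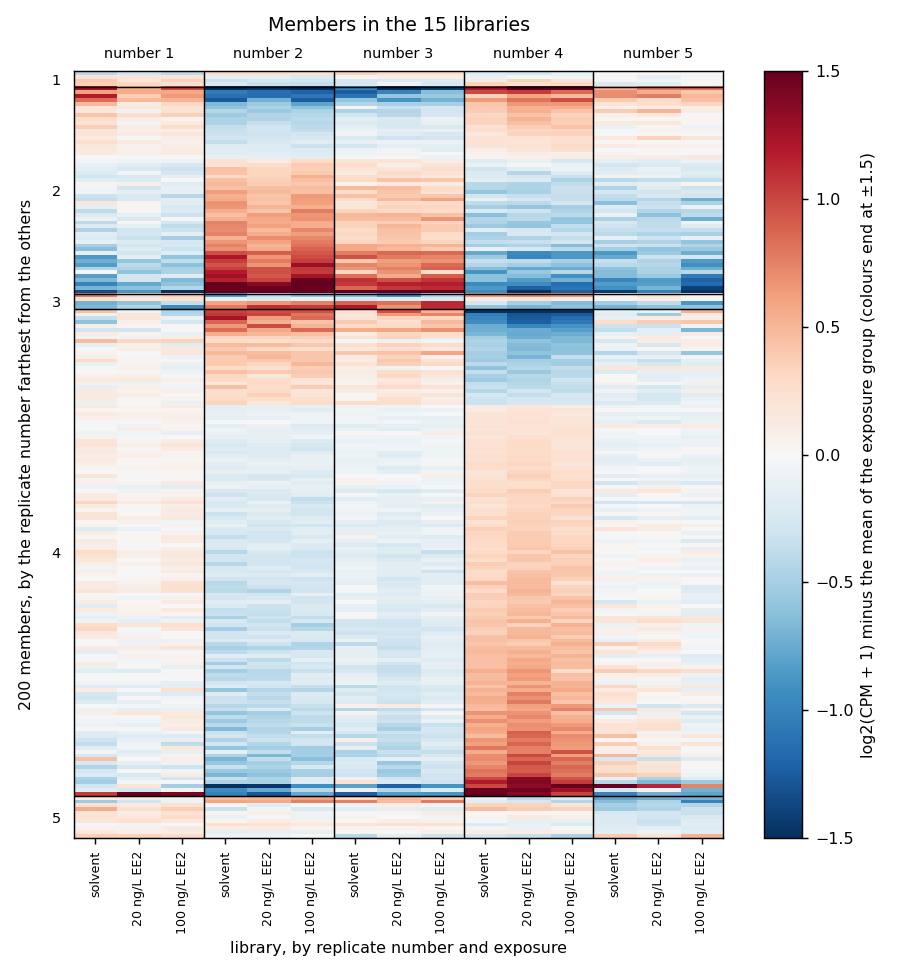
Heat map of log2(CPM + 1) minus the exposure group's mean for the 200 IDs (rows, grouped by the number farthest from the others) in 15 libraries (columns, ordered by number and then by exposure); red is above and blue below the group mean. Within each number the 3 columns look alike, and the 102 IDs with number 4 above the others make the largest block.

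Distances between libraries showed how the numbers were arranged. Over the 200 IDs, numbers 2 and 3 were nearest to each other, with a median absolute difference between their means of 0.13 on the log2 scale, and numbers 2 and 4 were farthest apart, at 0.77. Numbers 1 and 5 differed by 0.15, and numbers 3 and 4 by 0.63. Over the other 14634 IDs that met the limits, numbers 2 and 3 were again nearest, at 0.08, and numbers 2 and 4 again farthest, at 0.26. Principal components were taken after centring by exposure group, so differences between exposures were removed first. The first component held 80.4% of the remaining variation of the 200 IDs. On it, replicates 2 scored -7.89 to -6.90 and replicates 3 -5.64 to -4.73. Replicates 1 scored 1.82 to 2.84, replicates 5 2.84 to 3.24 and replicates 4 6.54 to 7.84. Libraries of different exposure but the same number sat together, and the order of the numbers was the same in each of the 3 exposures. Numbers 1 and 5 were close in that order, at 2.73 and 2.84 at 100 ng/L. The centring and the choice of the IDs largely fixed that same-numbered libraries sit together, so nothing is read from it.

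**Figure D3:**
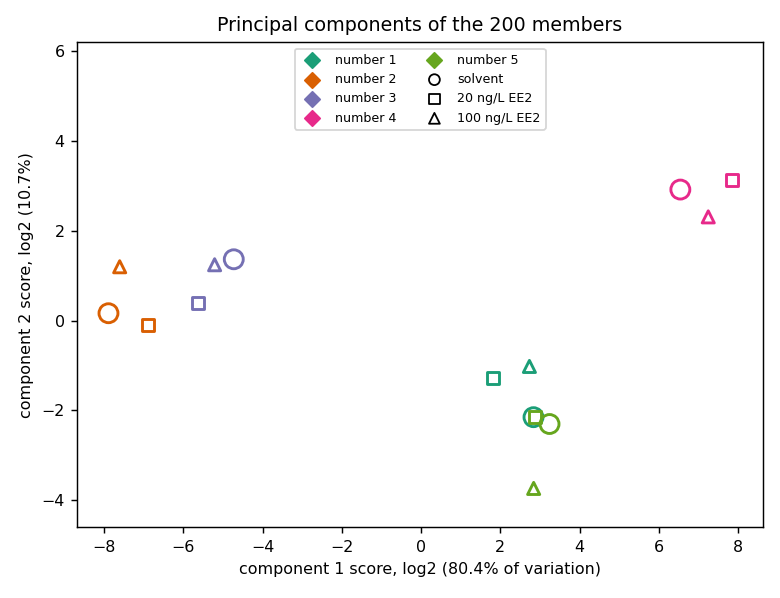
Scores of the 15 libraries on the first 2 principal components of the 200 IDs after centring by exposure group, in log2 units (colour, replicate number; large circle, solvent; square, 20 ng/L EE2; triangle, 100 ng/L EE2). Component 1 (80.4% of the variation within exposure groups) runs from number 2 through numbers 3, 1 and 5 to number 4, and solvent replicate 1 lies under 20 ng/L replicate 5 near the lower centre.

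Each library was also set against single libraries of its own and of other numbers, on values centred by exposure group. Over the 200 IDs, the median absolute difference from same-numbered libraries was 0.07 to 0.09 on the log2 scale, against 0.24 to 0.51 from other-numbered ones, and 15 of 15 libraries were nearer to their own number. Over the other IDs that met the limits, 14 of 15 libraries were nearer to their own number, with 0.11 to 0.28 from same-numbered and 0.17 to 0.36 from other-numbered libraries. The exception was replicate 1 of 20 ng/L, at 0.23 from the other libraries numbered 1 and 0.18 from libraries of other numbers. Solvent replicate 1, which stood apart over those other IDs at 0.28 from same-numbered and 0.36 from other-numbered libraries, did not stand apart over the 200, at 0.09 and 0.28. The choice of the 200 IDs favoured a small spread within numbers, so this closeness is part of the choice. Centring also removed the differences between exposures. It sets libraries of the same exposure apart from each other, and these count only among other-numbered libraries. The counts of 15 and 14 are thus tilted towards libraries of the same number, over the other IDs too.

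**Figure D4:**
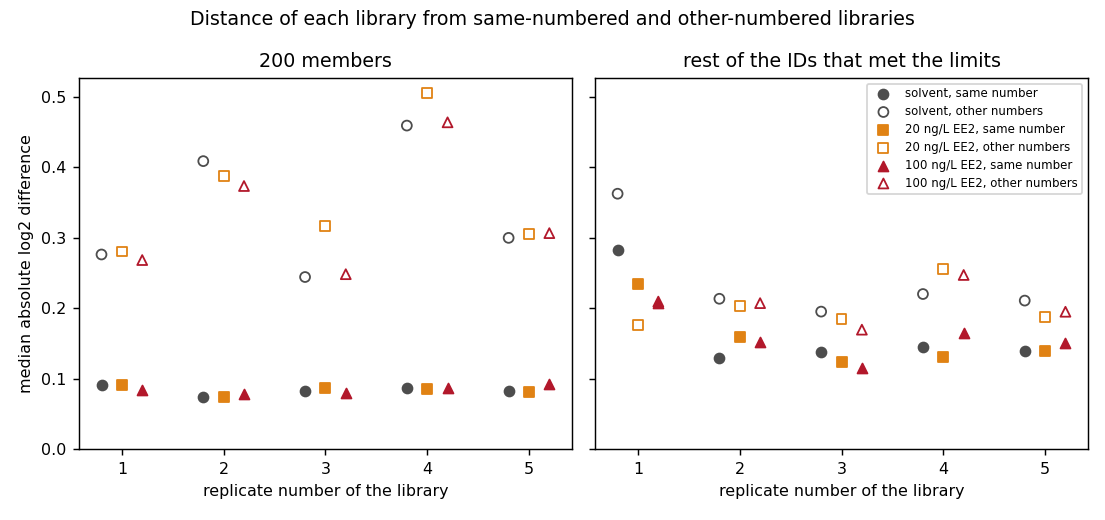
Median absolute log2 difference, on values centred by exposure group, of each library from libraries of the same number (filled) and of other numbers (open), for the 200 IDs (left) and the other IDs that met the limits (right), by replicate number and exposure. On the left all filled points lie at or below 0.0924 and all open points at or above 0.24. On the right replicate 1 of 20 ng/L has its filled point above its open one.

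Replicate number was not confined to these IDs. With number added to the group means, edgeR's quasi-likelihood test called 2826 of 21976 IDs for a difference between numbers (12.9%, adjusted p below 0.05), and 180 of the 200, a count that restates their choice and from which nothing is read. The count over all IDs moved with single libraries. It called 626 without replicate 4 of 20 ng/L, 1015 and 1123 without solvent replicates 2 and 4, 1612, 1734 and 1708 without replicates 3, 2 and 4 of 100 ng/L, 1829 without replicate 3 of 20 ng/L, and 4780 without replicate 1 of 20 ng/L. Without all libraries numbered 4 it called 84 IDs, without number 2 it called 559, without number 3 it called 1525 and without number 1 it called 4316. The ratio between the highest and the lowest number had a median of 1.73-fold in the 200 IDs (1.19 to 11.6) and 1.34-fold in the others. It was at least 2-fold in 64 of the 200 IDs and at least 4-fold in 12, against 6.48% and 0.533% of the others. The choice by F ratio favours wide differences, so nothing is read from these shares. Among the others the ratio reached 107-fold, so the widest ratio was not among the 200. Their residual SD had a median of 0.09 on the log2 scale, against 0.17 in the others.

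The exposure comparisons asked whether these IDs also differed with EE2. Group means were not used in the choice, except that CPM ranges at 100 ng/L and in solvent had to overlap, which limits the calls between that pair. None of the 200 was called by edgeR at 20 ng/L against solvent, where 0.0501% of all IDs tested were called, nor at 100 ng/L against solvent (0.105%), nor at 100 against 20 ng/L (0.0273%). At an unadjusted edgeR p below 0.05 the counts were 0, 0 and 0 of the 200, where 0.642%, 7.93% and 9.00% of all IDs passed, in the same order. DESeq2 and limma-voom called 0 of the 200 in each comparison too. Over all 21976 IDs tested, DESeq2 called 15, 58 and 34 and limma-voom 6, 21 and 9, in the same order. The only unadjusted p below 0.05 among the 200 was by DESeq2 at 100 ng/L against solvent, where 2020 of all IDs passed. In these fits the differences between numbers count as spread, and the choice favoured IDs where they are large beside the spread within numbers. The choice thus favoured few calls among the 200, an EE2 difference could be missed, and nothing is read from the counts of 0. With number as a block, 2.5%, 12.5% and 20.5% of the 200 had an unadjusted edgeR p below 0.05, against 1.26%, 13.3% and 17.1% of all IDs. The choice favoured little spread within numbers, which is the error term of the blocked fit, so nothing is read from these shares. The comparisons share libraries. Over all IDs, 991 were called at 100 ng/L against solvent without solvent replicate 1 (4.47%), and 0 of the 200. At 100 against 20 ng/L the count over all IDs fell to 0 without replicates 1, 2 or 3 of 20 ng/L or 2, 3 or 5 of 100 ng/L, to 2 without solvent replicate 1 and to 3 without solvent replicate 5, against 6 with all libraries.

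The fitted differences with exposure were as follows. At 20 ng/L against solvent the fitted folds of the 200 IDs ran from 0.751 to 1.19, with a median log2 fold change of 0.03 against -0.01 over all IDs tested, and 131 IDs were above 0 and 69 below (65.5% above 0, against 45.6% of all IDs tested). At 100 ng/L against solvent they ran from 0.681 to 1.56, with medians of -0.01 for both, and 98 IDs were above 0 and 102 below (49.0% above 0 in both). At 100 against 20 ng/L they ran from 0.685 to 1.88, with medians of -0.03 for the 200 and -0.00068 for all IDs tested, and 82 IDs were above 0 and 118 below (41.0% above 0, against 49.9%). With number as a block, the shares above 0 were 65.0%, 47.5% and 39.0% of the 200, in the same order. Over all IDs they were 50.3%, 49.6% and 49.2%. The 200 vary together, with 80.4% of their variation within exposure groups on 1 component, so these directions are not separate results. In all 200 IDs the range between number means exceeded the absolute difference between group means in each of the 3 comparisons, by a median factor of 15.7 at 20 ng/L against solvent, 9.79 at 100 ng/L against solvent and 8.35 at 100 against 20 ng/L. Among the other IDs that met the limits, this was so for 99.1%, 95.3% and 94.8%. The choice of the 200 largely fixed this outcome, and a range over 5 means is set here against a difference of 2, so nothing is read from it. In the first of the IDs, scaf2.827, the group means were 41.1 CPM ± 23.9 in solvent, 46.3 CPM ± 26.4 at 20 ng/L and 43.1 CPM ± 27.7 at 100 ng/L (SD, n = 5 each), and the 3 groups overlapped almost fully. None of the 200 had CPM ranges without overlap at 20 ng/L against solvent (0.0944% of the IDs that met the limits) or at 100 against 20 ng/L (2.60%). Differences between numbers widen these ranges in every group, so nothing is read from this.

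**Figure D5:**
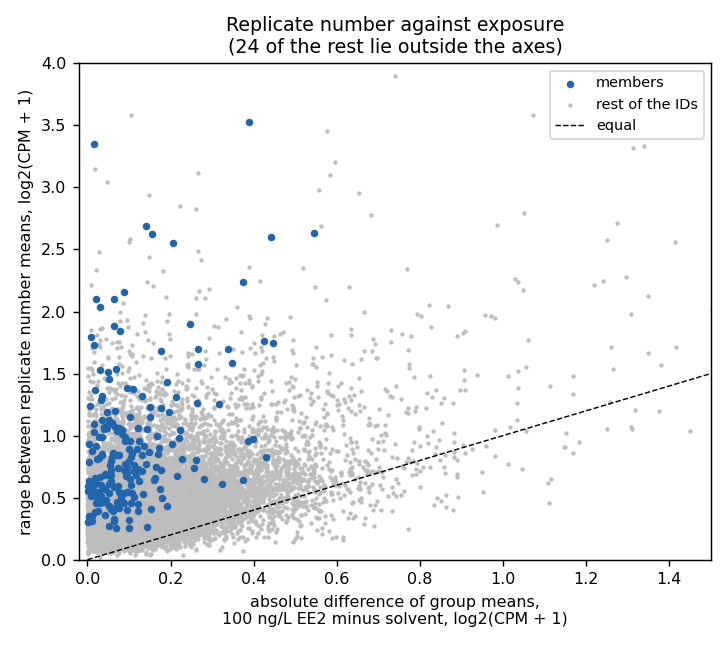
Range between replicate number means (vertical) against the absolute difference of the 100 ng/L EE2 and solvent means (horizontal), both in log2(CPM + 1), for the 200 IDs (blue) and the other IDs that met the limits (grey; 24 of these lie outside the axes). All blue points lie above the dashed line of equal size.

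With replicate number as a block in the fit, edgeR called 0 of the 200 in the comparisons of 20 ng/L with solvent, where 0.0501% of all IDs were called, and of 100 ng/L with solvent, where 0.114% were. Unadjusted p-values below 0.05 numbered 5 at 20 ng/L against solvent (2.5% of the 200, against 1.26% of all IDs) and 25 at 100 ng/L against solvent (12.5% against 13.3%). The choice favoured IDs with little spread within numbers, which is the error term of this fit, so these shares are not independent of it. With the block and without solvent replicate 1, 11 of the 200 were called at 100 ng/L against solvent, 5 higher and 6 lower, where 10.4% of all IDs were called. In the authors' deposited tables, which list all 200, none had an adjusted p below 0.05 at 20 ng/L, where 0.0707% of the listed IDs did, or at 100 ng/L, where 7.34% did. For 100 ng/L, the authors' deposited table gave the 200 a lowest adjusted p of 0.113. At 100 ng/L the deposited table had 1143 of 15569 IDs below 0.05, where the main edgeR fit here called 23 of 21976. The cause was not tested. The choice favoured differences between numbers, which add to the spread in any fit without a number term. Whether the authors' fit had such a term is not known here, so nothing is read from these counts.

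The 200 IDs were spread over the assembly's prefixes. They came from 79 of the 328 prefixes that had an ID within the limits, and 36 of these prefixes held 1 of them. The most from 1 prefix was 12, from scaf2 (1.35% of its 886 IDs within the limits, the same as the 1.35% over all prefixes). Consecutive numbers within a prefix, which may or may not be neighbours in the genome, were rare. Of the 200, 8 (4.00%) were numbered next to another of the 200, against 1.55% of the other IDs within the limits. They form 4 pairs. In scaf2.826 and scaf2.827, numbers 2 and 3 were high in both: scaf2.826 had 48.5, 50.6 and 47.7 CPM in replicates 2 and 46.5, 48.7 and 35.0 CPM in replicates 3 of solvent, 20 ng/L and 100 ng/L, and 6.42 to 20.1 CPM in the 9 others. Numbers 2 and 3 also lay on the same side in both IDs of the pairs scaf3.311 with scaf3.312 and scaf102.38 with scaf102.39. In scaf4.217 and scaf4.218 they lay on opposite sides, at a log2 difference of 0.94 and -0.36 from numbers 1, 4 and 5. These 3 pairs were named after their values were seen. Consecutive IDs can share reads, so their values are uncertain as separate measurements. The 227 other IDs numbered next to one of the 200 had a median F ratio of 3.22, against 2.80 in the remaining IDs within the limits.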

How the data were processed

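Poly(A) RNA-seq of 15 libraries of pooled whole larvae (embryos in the sample titles) was analysed, 5 per exposure, grouped by the sample titles. The authors deposited 1 table of raw counts per ID and library. The submitters' processing notes list edgeR 3.26.5, Trimmomatic 0.38 and StringTie 1.3.4d. Not given in the sources used here were aligner, build, annotation and use of strand, so antisense or overlapping genes cannot be told apart. Per the file headers, the authors' deposited tables for 20 and 100 ng/L give signed fold change, log2 fold change, log2 mean CPM, p-value, adjusted p-value and F score; only p-values from them are printed.

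The 200 IDs and the lists were chosen with earlier results of these data known. IDs to be named were the 4 with the largest F ratio, the widest of each number and direction, those on either side of the limit, EE2 calls (none), the pair of consecutive IDs with the highest mean F and the highest mean CPM. Counts were fitted in R 4.3.3 with edgeR 4.0.16 (filterByExpr with minimum count 10 and total 15, TMM, robust quasi-likelihood, all 15 libraries, group means; Benjamini-Hochberg below 0.05 over all 21976 IDs), tested on simulated counts. The number term was tested in a fit with group and number. Alternatives were DESeq2 1.42.0, limma-voom (limma 3.58.1), other scalings, filters, samples and thresholds, the replicate block, and libraries or numbers left out. Description and figures used Python 3.11.15 and matplotlib 3.10.9. 

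The labels state no pairing of same-numbered libraries. Over all IDs tested, the deviations of same-numbered libraries from group means correlated by 0.11 to 0.62 for 20 ng/L and solvent. The values were 0.23 to 0.39 for 100 ng/L and solvent, and 0.08 to 0.45 for 100 and 20 ng/L. Without the 200 IDs these were 0.11 to 0.61, 0.22 to 0.38 and 0.08 to 0.44. All 5 pairs passed the limit of 0.1 in the comparisons with solvent only. Correlations between libraries of different numbers are not given here, so these values do not show that pairing follows the number.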

Additional observations from a re-analysis of the deposited data

Results flagged for a closer look

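In scaf8.435, replicate 4 of 20 ng/L EE2 had 782 CPM where the other 4 libraries of that group had 513 to 575 CPM, a gap to the nearest library of 0.770 of the group's range. Replicates 4 of 100 ng/L and of solvent were also the highest of their groups. The search covered 20 named IDs in 3 groups each, 60 in all, and marked 1. The share of 1 in 20 that chance marks elsewhere does not apply here, since this ID was chosen on the same values and belongs to those with number 4 above the others.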

How the results depend on the processing

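The 200 IDs depend on how they are ranked: 133 remained with a mean CPM minimum of 20 and 112 when ranked by edgeR's F. With TMM scaling 135 remained, and with centring on the group median 144. Those numbered near another of the 200 came to 19 within 5 numbers (9.5%, against 7.05% of the other IDs), in place of 8 (4.00% against 1.55%), so the shares were closer at the wider window. Of the 200, between 104 and 163 remained without 1 library, and 89, 121, 128, 96 and 122 without all libraries numbered 1, 2, 3, 4 and 5. For the number term, 535 IDs were called at an adjusted p below 0.01 and 6510 by DESeq2. In 20 ng/L and solvent only, 48 IDs and 19 of the 200 were called, in 100 ng/L and solvent only 88 and 32, and in 100 and 20 ng/L only 105 and 55. Without 1 library, 626 to 4780 IDs and 137 to 184 of the 200 were called. Without numbers 1, 2, 3 and 4 the counts were 4316, 559, 1525 and 84 IDs, and 117 and 45 of the 200 without numbers 2 and 4. The counts of the 200 for this term restate their choice, and nothing is read from them. At 20 ng/L against solvent, limma-voom called 6 IDs in place of 11, and so did the replicate block without solvent replicate 1. At 100 ng/L against solvent DESeq2 called 58 in place of 23, leaving out 1 library gave 18 to 991 and leaving out number 1 gave 40. The replicate block without solvent replicate 1 gave 2314, 11 of them among the 200. At 100 against 20 ng/L the replicate block gave 12 in place of 6, DESeq2 34, a threshold of 0.01 gave 0, and libraries or numbers left out gave 0 to 8. In that comparison the libraries numbered 1 correlated by 0.08, below the limit of 0.1, and those of the other numbers by 0.14 to 0.45. With the block, 41 of the 200 (20.5%, against 17.1% of all IDs) had an unadjusted edgeR p below 0.05 there. The choice favoured a small error term in the blocked fit, so nothing is read from this share. With all libraries, the block changed the count of the 200 called in no comparison. The causes were not tested. Of 120 recomputed differences of the 20 named IDs, 106 moved by less than the residual SD, 14 by more and 0 changed sign. The lowest count of any of the 200 in a library was 52, and the part of counting error in their spread was not tested.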
